A study of Mus musculus with 54 samples.

Results

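Goblet cells of the mouse small intestine were picked out of 4 single-cell RNA libraries by the share of their transcripts that comes from 7 mucus genes. Cells were kept if they showed 500 genes or more and 1000 UMIs or more and if mitochondrial transcripts made up less than 25% of them, where a UMI is a molecular tag that stands for 1 captured transcript. A kept cell was called a goblet cell when Muc2, Tff3, Fcgbp, Zg16, Agr2, Spink4 and Clca1 together gave at least 1% of its UMIs and the Paneth cell genes Lyz1 and the Defa family gave under 10%. The rule found 1493 goblet cells among 9156 kept cells, out of 17836 barcodes. The genotypes were wild type (WT) and a knockout of miR-375 (KO, named 375-KO in the labels). The labels number 2 sets, with 1 library of each genotype, called here WT1 and KO1 in set 1 and WT2 and KO2 in set 2. Where 4 values follow each other without names, they are in the order WT1, KO1, WT2, KO2. All 4 libraries came from dissociated small intestinal cells of mice aged 12 months, of the strain given as C57BL6/2J. No treatment is named. How the knockout allele was made, and how many mice were pooled in a library, is given nowhere in the labels, and p-values measure only the spread between these 4 libraries.

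Goblet cells are secretory cells of the intestinal lining that make the mucus gel between the epithelium and the gut contents. They arise from crypt progenitors that escape Notch signalling and express the transcription factor Atoh1, and Spdef then drives their maturation. Much of their protein output is Muc2, a very large gel-forming mucin, which is folded in the endoplasmic reticulum, coated with sugars in the Golgi and stored in granules until release. miR-375 is a microRNA that is abundant in secretory and endocrine cells.

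The 192 goblet cells of WT1 held 3589448 UMIs, the 258 of KO1 4603552, the 459 of WT2 15609867 and the 584 of KO2 12629335. The median goblet cell had 17918 UMIs in WT1, 17196 in KO1, 25844 in WT2 and 15712 in KO2, so WT2 was the deepest. Mir375 has no row in the gene table, and the files therefore hold no check of the deleted gene. Within a set WT and KO libraries shared 1 barcode (set 1) and 12 barcodes (set 2), of which 0 and 1 were goblet cells in both, and no barcode was shared across sets.

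The mucus genes separated the cells by a wide margin. The median goblet cell took 8.72% of its UMIs from the 7 genes in WT1, 11.3% in KO1, 10.5% in WT2 and 10.4% in KO2, and the highest cell in each library reached between 46.8% and 63.7%. The median of the other kept cells lay between 0.0536% and 0.132%. Few cells sat at the threshold. Between 1 and 8 cells per library had 1 to 1.1% mucus UMIs, with medians of 1.04% to 1.07%, and between 1 and 14 had 0.9 to 1%, with medians of 0.902% to 0.939%. At the other limit, between 1 and 6 cells per library had 8 to 10% Lyz1 and Defa UMIs and between 0 and 3 had 10 to 12%. A further 56, 44, 61 and 106 cells with at least 1% mucus UMIs were left out by that limit in the 4 libraries.

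**Figure D1:**
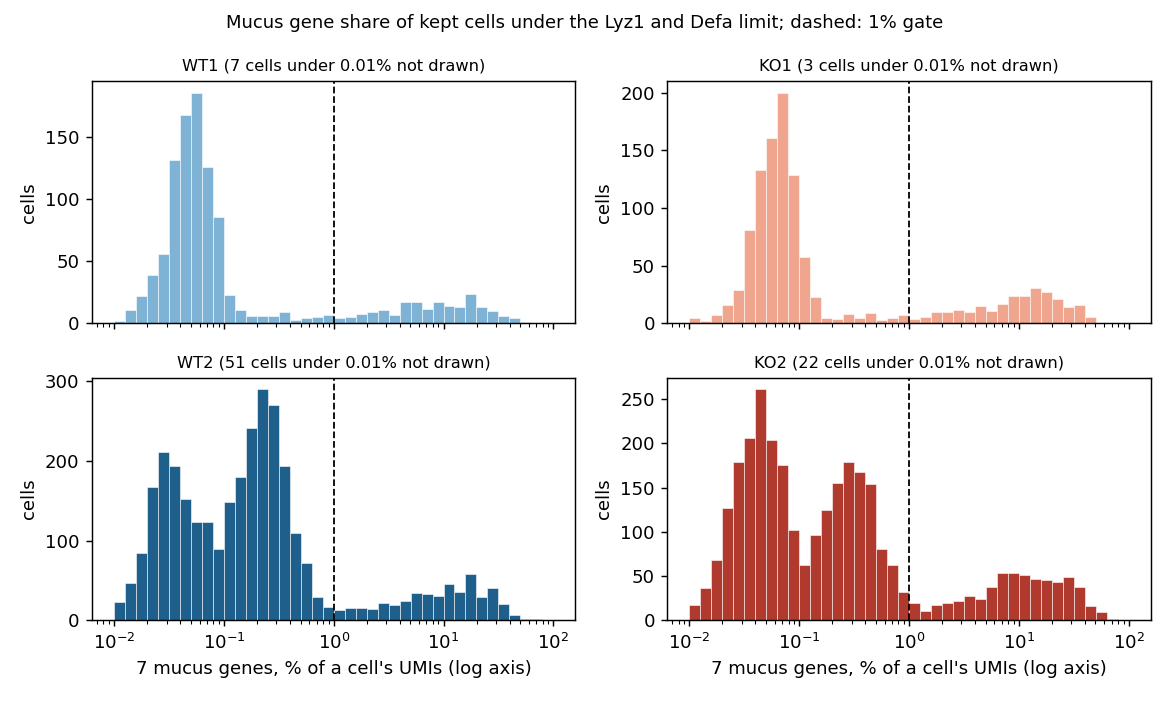
Number of kept cells under the Lyz1 and Defa limit (vertical axis) by the share of UMIs from the 7 mucus genes (horizontal log axis, percent), 1 panel per library, with the 1% threshold dashed. Goblet cells form the hump to the right of the line with medians of 8.72% to 11.3%, and in set 2 a second hump of 1553 (WT) and 1115 (KO) cells lies between 0.1% and 1%.

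The hump between 0.1% and 1% in set 2 was made of shallow cells, with a median of 2800 UMIs in WT and 2215 in KO. Cells with at least 3 UMIs of the lymphocyte genes Cd3d, Cd3e, Cd3g and Ptprc had a median mucus share of 0.206% in WT2 and 0.289% in KO2, which gives the level of mucus transcripts in cells that should not make them. Goblet cells were at least 1%, and typically far above this level.

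Markers of most other cell types summed to less in the goblet cells than in the other kept cells, and those of stem and of cycling cells to more. Summed over the 7 Paneth markers found in the table, goblet cells held between 4785 and 7584 CPM, the UMIs of a gene per 1000000 UMIs of these cells, against 44224 to 139410 in the other kept cells. The gate uses 4 of these 7 markers, Lyz1 and Defa genes, so the rule itself set part of this gap. The 8 T lymphocyte markers summed to 145, 237, 132 and 62.7 CPM in the 4 libraries. The 10 enterocyte markers summed to 2803, 3021, 4235 and 5975 CPM in the same order and were thus higher in the KO library of each set. The 6 stem cell markers summed to 194, 173, 261 and 272 CPM in goblet cells and to 124, 163, 179 and 207 in the other kept cells. Most of the sum in goblet cells was Slc12a2, which is also on the granule traffic list, at 133, 127, 209 and 209 CPM. In the other kept cells Slc12a2 stood at 65.0, 87.8, 99.8 and 110 CPM. The stem sum therefore does not show that the stem markers as a group were higher in goblet cells. The 5 cycling markers summed to 484, 510, 753 and 725 CPM against 411, 473, 553 and 478. The 10 enteroendocrine markers summed to 528, 344, 239 and 472 CPM against 723, 638, 936 and 685. Of the 7 stromal and endothelial markers 6, 5, 5 and 3 were at 0, and the collagen genes Col1a2 and Col3a1 and Dcn, markers of fibroblasts, were at 0 in all 4 libraries. Goblet cells with at least 3 lymphocyte UMIs numbered 1, 4, 12 and 9, and those with at least 1% enterocyte gene UMIs 0, 2, 9 and 18. The label goblet cell was kept.

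The gating genes are the products by which goblet cells are known. They were used to choose the cells, so their values are given as a description and without a test. Muc2, the gel-forming mucin, stood at 3279 CPM in WT1, 2822 in KO1, 6256 in WT2 and 5444 in KO2. It was lower in the KO library of each set and lower in set 1 than in set 2. Fcgbp, which encodes a mucus protein bound to Muc2, stood at 4932, 5088, 7616 and 8701 CPM in the same order of libraries. Clca1, a secreted protease of the mucus, stood at 769, 973, 1778 and 1392 CPM, higher in KO in set 1 and lower in set 2. Tff3, a trefoil peptide of epithelial repair, stood at 40776, 45654, 19652 and 21457 CPM and was higher in set 1 in both genotypes. Zg16, a lectin that binds bacterial cell walls, stood at 23649, 34004, 33772 and 41663 CPM. Both KO libraries lay above the WT library of their set. Agr2, a disulfide isomerase needed for Muc2 folding, stood at 14235, 17540, 16584 and 15821 CPM. Spink4, a secreted peptide of the protease inhibitor family, stood at 23402, 23999, 15823 and 14043 CPM. In the other kept cells the 7 genes ranged from 4.75 CPM for Clca1 in WT1 to 3299 CPM for Spink4 in the same library.

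**Figure D2:**
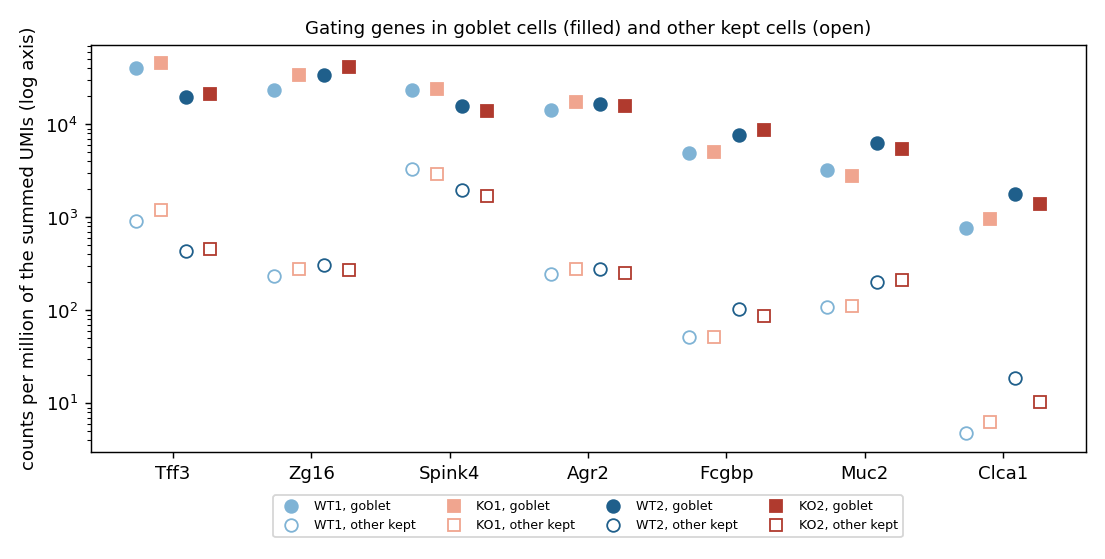
CPM on a log axis for the 7 gating genes, in the goblet cells (filled) and in the other kept cells (open), by library (circles WT, squares KO). Every filled point lies above the open points of its gene, and Tff3 is higher in set 1 (40776 and 45654) than in set 2 (19652 and 21457).

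Beyond the gating genes, 517 of 11185 genes (4.62%) stood at least 2-fold above the other kept cells in all 4 libraries. The gate set this contrast, so the counts are a description from which nothing is read. They include 13 of 20 tested goblet regulators, 18 of 32 other secreted products, 19 of 32 mucin glycosylation genes, 22 of 50 genes of protein folding in the endoplasmic reticulum and 12 of 27 genes of granule traffic. Spdef stood at 120, 139, 116 and 120 CPM in goblet cells and at 4.75, 4.44, 4.87 and 7.07 in the other kept cells, and Galnt12, an enzyme that adds the first sugar to mucins, at 175, 206, 190 and 186 against 11.8, 11.0, 12.5 and 12.6.

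The makeup of the mucus transcripts differed by set in both genotypes. Tff3 supplied 36.7% of the mucus UMIs in WT1 and 35.1% in KO1, but 19.4% in WT2 and 19.8% in KO2. Zg16 supplied 21.3% and 26.1% in set 1 and 33.3% and 38.4% in set 2, for WT and KO. Muc2 supplied 2.95% and 2.17% in set 1 and 6.16% and 5.02% in set 2. Across the cells of a library, the share of each gating gene ran with the summed share of the remaining 6. Spearman's rho was 0.890 to 0.930 for Tff3 over the 4 libraries and 0.440 to 0.680 for Agr2, over 192 to 584 cells that share a library and a closed total.

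Within the goblet cells, proliferation genes were highest in those with a low mucus share, and the lineage regulators and the secretory machinery in those with a high share. Goblet cells were divided by mucus share at 2%, 5%, 10% and 20% of UMIs, and other genes were given as non-mucus CPM, which is CPM over the UMIs outside the gating genes, as a description of the same cells. The 19 proliferation genes summed to 5452 non-mucus CPM in the 1 to 2% bin and to 993 in the bin above 20% in WT1, to 5796 and 1339 in KO1, to 5152 and 737 in WT2 and to 6173 and 669 in KO2. They were lower in each successive bin of every library. The 1 to 2% bin of WT1 holds 17 cells. Without it, the sum in that library still went from 4756 in the 2 to 5% bin to 993. Mki67, a marker of cycling cells, went from 143 to 5.11 non-mucus CPM in WT1, from 142 to 30.7 in KO1, from 202 to 4.63 in WT2 and from 292 to 3.57 in KO2 between the lowest and highest bins. Sox4, a progenitor transcription factor, went from 385 to 20.4 in WT1, from 552 to 29.2 in KO1, from 154 to 12.6 in WT2 and from 223 to 11.4 in KO2.

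Several transcription factors of the lineage ran the other way. Atoh1 went from 46.6 to 217 non-mucus CPM between the lowest and highest bins in WT1, from 33.2 to 235 in KO1, from 51.2 to 243 in WT2 and from 62.2 to 253 in KO2. Spdef went from 62.1 to 189, from 33.2 to 196, from 64.7 to 204 and from 64.6 to 218 in the same order. Klf4, a factor of terminal goblet differentiation, went from 106 to 536, from 130 to 519, from 143 to 589 and from 148 to 808. Hes6, another listed regulator, did not share this rise and went from 112 to 120, from 214 to 146, from 102 to 116 and from 122 to 130. Creb3l1 went from 87.0 to 230, from 66.3 to 244, from 98.7 to 206 and from 105 to 190, and was highest in a bin below 20% in each library. Dll1, the Notch ligand that secretory precursors present to their neighbours, changed little by comparison and lay between 53.9 and 121 non-mucus CPM in all 20 bins. The mucin glycosylation genes summed to 1410 non-mucus CPM in the lowest bin and 4876 in the highest in WT1 and to 1825 and 5919 in KO2. The genes of protein folding in the endoplasmic reticulum summed to 8752 and 22875 in WT1 and to 9075 and 24741 in KO2. Cells above 20% mucus made up 17.7% of the goblet cells in WT1, 21.7% in KO1, 21.6% in WT2 and 26.7% in KO2.

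**Figure D3:**
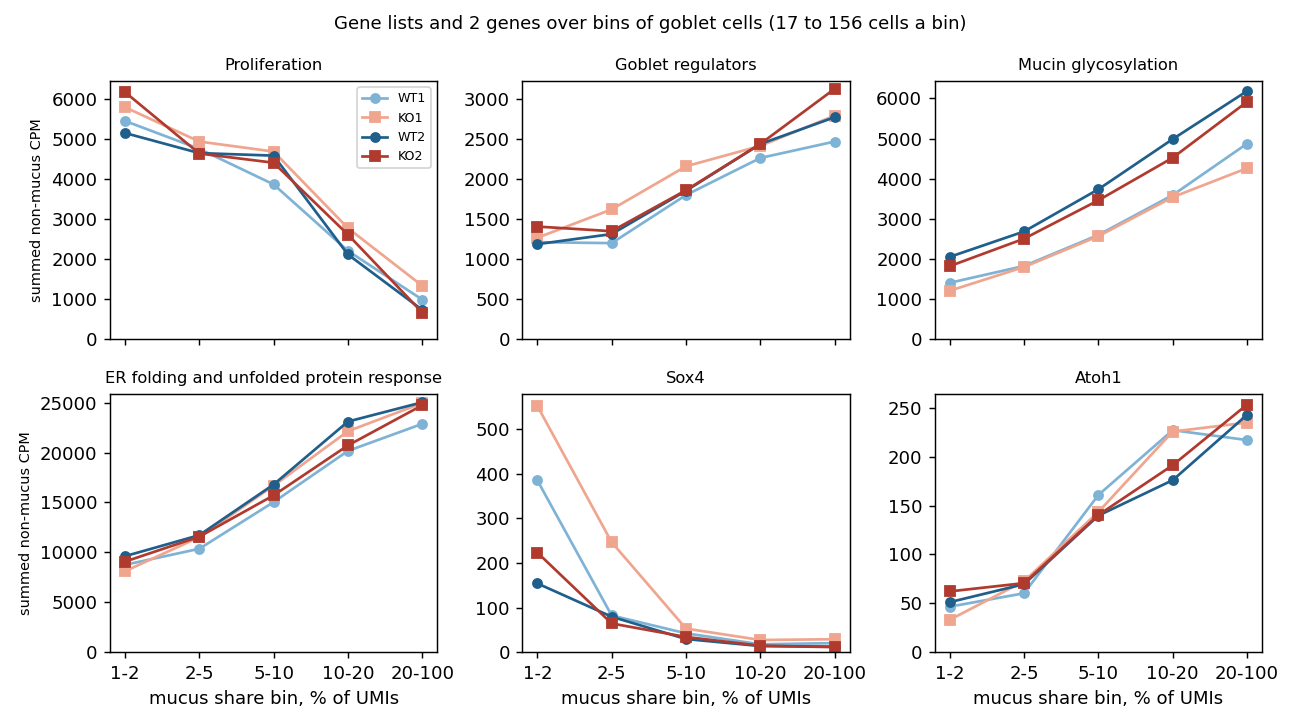
Summed non-mucus CPM (vertical axes, from 0) for 4 gene lists and for Sox4 and Atoh1, over 5 bins of mucus share (horizontal axis, percent of UMIs), 1 line per library. Proliferation genes are lowest in the bin above 20% in all 4 libraries and Sox4 at 10% or more, and the other lists and Atoh1 are highest at 10% or more, in WT and KO alike.

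Goblet cells made up 16.0% of the kept cells in WT1 (192 of 1197, exact 95% interval 14.0% to 18.2%), 20.8% in KO1 (258 of 1241, 18.6% to 23.2%), 13.6% in WT2 (459 of 3363, 12.5% to 14.9%) and 17.4% in KO2 (584 of 3355, 16.1% to 18.7%). Intervals are by Clopper-Pearson and cover counting error only. The KO share was 1.30 times the WT share in set 1 and 1.28 times in set 2. Over both sets the log2 ratio was 0.36, with p = 0.333 in a two-sided exact permutation test of 2 against 2 libraries, which is the smallest p this design allows. The share depends on which other cells were captured. Cells with at least 3 lymphocyte UMIs made up 2.26% of the kept cells in WT1, 3.79% in KO1, 43.8% in WT2 and 25.5% in KO2. Without them, goblet cells made up 16.3% and 21.3% in set 1 and 23.7% and 23.0% in set 2, for WT and KO. The log2 ratio was then 0.38 in set 1 and -0.041 in set 2, and the exact permutation p was 1. The higher goblet share of the KO in set 2 was thus present over all kept cells and not over the cells with fewer than 3 lymphocyte UMIs.

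**Figure D4:**
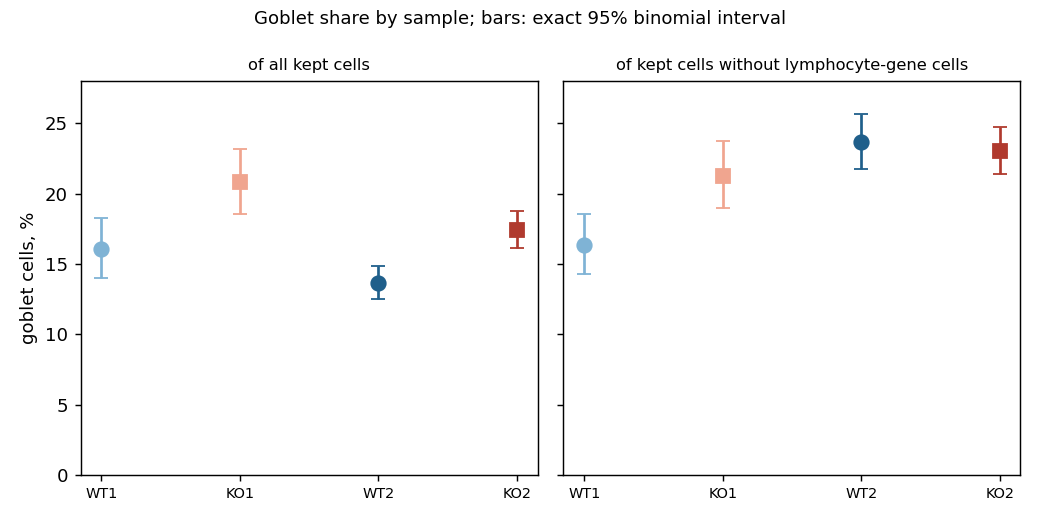
Goblet cells as a percent of all kept cells (left) and of the kept cells with fewer than 3 lymphocyte UMIs (right), by library, with exact 95% binomial intervals. In set 1 the KO lies above the WT in both panels (20.8% against 16.0%, and 21.3% against 16.3%), and in set 2 only in the left one.

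Between genotypes, goblet cells differed past the threshold in 2 genes. The UMIs were summed over the goblet cells of each library and tested with the quasi-likelihood test of edgeR with the set in the model. The labels do not say whether the WT and KO libraries of a set were processed together. Of 11200 genes tested that the gate does not use, 2 passed a Benjamini-Hochberg adjusted p of 0.05, which is 0.0179% of the genes, and both were higher in KO. At an unadjusted p under 0.05 there were 496 genes, and DESeq2 called 7 genes higher and 5 lower.

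Wdfy1 encodes an endosomal protein that binds phosphoinositides and takes part in Toll-like receptor signalling. It lies on chromosome 1 at 79702262 to 79776143 of GRCm38 on the minus strand, 4.8 Mb from Mir375 at 74900658 to 74900721 on the same strand. Goblet cells held 17 UMIs of Wdfy1 in WT1, 117 in KO1, 124 in WT2 and 581 in KO2, or 4.74, 25.4, 7.94 and 46.0 CPM. Both KO libraries lay above both WT libraries, and the share of all tested genes without overlap of the genotypes was not counted. The log2 change was 2.52 (SE 0.145, edgeR adjusted p = 0.0134), with 2.42 in set 1 and 2.51 in set 2. Rprml, a relative of the growth-arrest gene Reprimo, lies on chromosome 11 at 103649570 to 103650579 on the plus strand. It had 11, 126, 11 and 166 UMIs in the same order, or 3.06, 27.4, 0.705 and 13.1 CPM, and again the genotypes did not overlap. Its log2 change was 3.75 (SE 0.286, edgeR adjusted p = 0.0392), with 3.12 in set 1 and 3.85 in set 2. Both genes were among those already known to differ in these libraries. Neither passed the threshold without the set in the model, where edgeR called 0 genes in either direction and 80 had an unadjusted p under 0.05.

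Both genes were also higher in the other kept cells of the KO. Wdfy1 stood there at 8.79 CPM in WT1, 33.5 in KO1, 11.3 in WT2 and 61.1 in KO2. The log2 change in goblet cells minus that in the other kept cells was 0.10 (SE 0.230, edgeR adjusted p = 1). For Rprml the other kept cells stood at 2.52, 13.1, 2.67 and 7.90 CPM, and the difference of the changes was 1.85 (SE 0.475, edgeR adjusted p = 1, unadjusted p = 0.00405). Over the bins of mucus share, Rprml in KO1 was 57.3 non-mucus CPM in the lowest bin and 10.7 above 20%, and in KO2 it was 18.3 and 10.7. Wdfy1 in KO1 was 9.05 non-mucus CPM in the lowest bin, between 29.0 and 38.6 in the next 3 and 24.6 above 20%, and in KO2 it lay between 47.8 and 55.0 in all 5 bins.

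Cuedc1, a gene on chromosome 11 of little known function, had 8, 31, 43 and 104 UMIs in the 4 libraries, a log2 change of 1.60 (SE 0.260, edgeR adjusted p = 0.213). Hbegf, a growth factor ligand of the EGF receptor, had 30, 87, 242 and 404 UMIs and a log2 change of 1.10 (SE 0.142, edgeR adjusted p = 0.172). Rnase1, a secreted ribonuclease, had 555, 1068, 1068 and 1804 UMIs and a log2 change of 0.86 (SE 0.123, edgeR adjusted p = 0.184). These 3 had higher CPM in the KO library of each set, which their choice required, and did not pass the threshold. The remaining 5 of the 10 genes with the smallest p on the higher side were Cyp3a11, a drug-metabolising enzyme, Apoa4, an apolipoprotein of absorbing enterocytes, Acta1, a muscle actin, Reg1, a lectin of the Reg family, and the predicted gene Gm8797. Their log2 changes lay between 1.44 and 3.01. Apoa4 in the other kept cells stood at 344 CPM in WT1, 276 in KO1, 198 in WT2 and 1128 in KO2, far above its 12.3, 24.1, 34.0 and 128 CPM in goblet cells. A single goblet cell held 42.3% of the Apoa4 UMIs of KO1. In the fits with 1 library left out and no set term, the log2 change lay between 0.25 (without WT2) and 1.59 (without WT1) for Rnase1. It lay between 0.18 (without KO2) and 2.53 (without WT2) for Apoa4, between 0.09 (without KO1) and 4.10 (without WT1) for Gm8797 and between -0.49 (without KO2) and 2.58 (without WT2) for Reg1.

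On the lower side, the 10 genes with the smallest p included Reg3g, Cd74, Rnf213, Gsdmc2, Clec2h, Isg15, Xaf1, Reg3b and Gsdmc4, and the 10 had edgeR adjusted p between 0.119 and 0.172. None passed the threshold. Reg3g, a lectin that kills Gram-positive bacteria, stood at 415 CPM in WT1, 225 in KO1, 1766 in WT2 and 1013 in KO2, a log2 change of -0.82 (SE 0.0795, edgeR adjusted p = 0.119). Its relative Reg3b stood at 221, 149, 2691 and 1737 CPM. The KO was the lower library of each set for both, which their choice required, but set 1 lay below set 2 in either genotype. In the fit without WT2 and without the set term, the log2 change of Reg3g was 0.46 and that of Reg3b 1.96, and without KO1 that of Reg3b was 0.25. One cell held 34.0% of the Reg3g UMIs of KO1. Without the goblet cells holding a lymphocyte UMI, and with the set term, the log2 change of Reg3g was -0.47. In that fit it was -0.72 for Cd74 and -1.66 for Isg15. Gsdmc2 and Gsdmc4, pore-forming proteins of the gasdermin C family, had log2 changes of -1.31 and -0.97. That of Gsdmc4 was -0.18 without WT2, -0.43 without KO1 and -1.97 without KO2, again with no set term. Reg3b and Reg3g, like Gsdmc2 and Gsdmc4, are close paralogs, and the labels do not say how reads that match both were counted.

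Isg15, Rnf213 and Xaf1, among the 10 genes on the lower side, are interferon-stimulated genes. Interferons released during infection or by commensal signals switch on a shared set of antiviral and antigen-presentation genes. Isg15, a ubiquitin-like protein of this set, had 144 UMIs in WT1, 33 in KO1, 831 in WT2 and 261 in KO2, or 40.1, 7.17, 53.2 and 20.7 CPM. Both KO libraries lay below both WT libraries, with a log2 change of -1.69 (SE 0.225, edgeR adjusted p = 0.172). One cell held 23.6% of the UMIs in WT1. Rnf213, an antimicrobial ubiquitin ligase, stood at 33.2, 14.6, 47.9 and 24.0 CPM. Xaf1, a pro-apoptotic interferon target, stood at 14.2, 5.87, 17.0 and 6.18 CPM. For both of these genes too the genotypes did not overlap. Isg15, Rnf213 and Xaf1 were chosen for a small p with the same sign in both sets. The share of all tested genes without overlap was not counted.

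A list of 56 interferon-stimulated genes was drawn up after these values had been seen, so its counts are a description and support nothing by themselves. Of its 50 tested members, 49 were lower in KO in both sets, where 26.9% of all tested genes were, and the median log2 change was -0.84, against -0.003 over all tested genes. The median was -1.07 in set 1 and -0.71 in set 2. The exception was Ifit3, at 0.23 in set 1 and -1.10 in set 2. The list's 0 calls at the adjusted threshold stand beside 45 members with an unadjusted p under 0.05, which 496 of all 11200 tested genes had. With goblet cells taken from 5% mucus UMIs upward, edgeR called 17 of 49 tested members lower and none higher, where 0.305% of 10493 genes were called lower in all. With a 2% threshold it called 14 of 50 lower (0.2% of 10998 genes in all), and with no filter on low counts 27 of 55 (0.3% of 16681). It called 9 of 49 with a 10% mitochondrial limit (0.157% of 10861) and 9 of 31 after thinning each cell to 2000 UMIs (0.364% of 6315). Fewer members were called lower in the other settings. Without likely doublets there were 3 (6 of 10887 genes in all) and with DESeq2 2 (5 of 11200). With median-of-ratios scaling there was 1 (3 of 11200), and without goblet cells holding a lymphocyte UMI 1 (2 of 11061). None was called with a 2% Lyz1 and Defa limit, with a minimum of 2000 UMIs, with the gating genes left out of the library sizes, without the set in the model, or with any 1 library left out. The change in goblet cells minus that in the other kept cells had a median of -0.12 over the list, and no member passed the edgeR test of that difference. In other kept cells Isg15 stood at 40.6, 6.86, 34.9 and 23.9 CPM. The summed T lymphocyte markers were 145 and 237 CPM in WT1 and KO1 and 132 and 62.7 in set 2, so they were higher in KO in set 1 and lower in set 2. Leaving out every goblet cell with a lymphocyte UMI gave a list median of -0.83.

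MHC class II proteins present antigens to T helper cells. The intestinal epithelium makes these proteins under interferon gamma. Cd74, the invariant chain that escorts MHC class II, stood at 570 CPM in WT1, 283 in KO1, 710 in WT2 and 425 in KO2, a log2 change of -0.85 (SE 0.0959, edgeR adjusted p = 0.163). H2-Aa, an alpha chain, stood at 236, 31.5, 159 and 82.6 CPM, and H2-Ab1, its partner beta chain, at 209, 92.3, 179 and 135 CPM. KO lay below WT for all 3 in both sets. Of 7 MHC class II genes in the list, also drawn up after their values were seen, 6 were lower in both sets, where 26.9% of all tested genes were, and 0 were called. The exception was H2-Eb1, at 1.26 in set 1 and -0.52 in set 2. Among the 17 tested antimicrobial and immune response genes, which hold several of the above, 13 were lower in both sets and 0 higher in both, against 26.9% and 25.1% of all tested genes, with a median log2 change of -0.83.

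**Figure D5:**
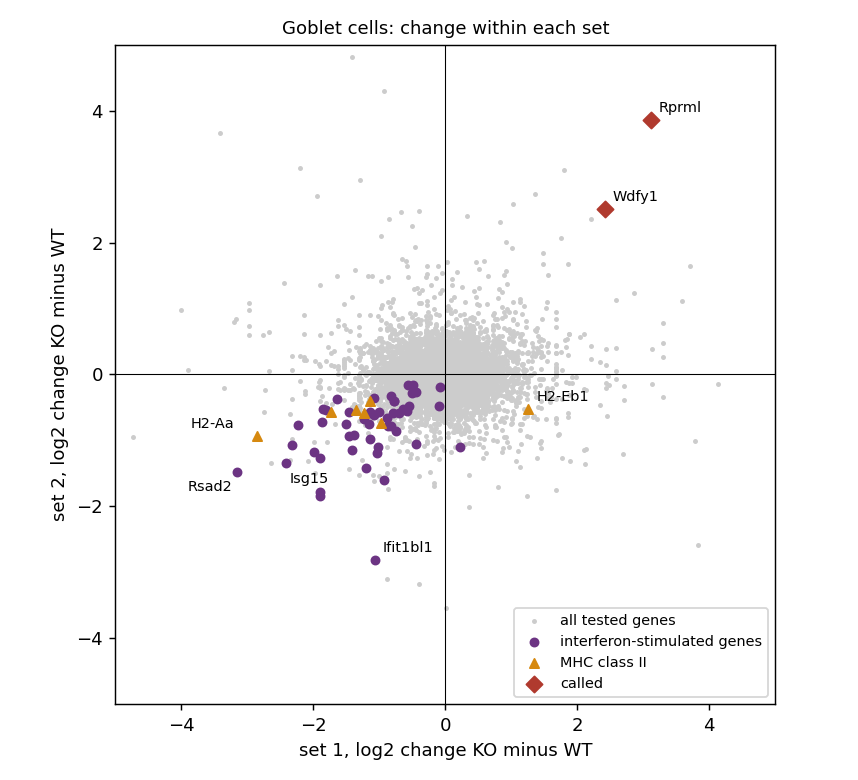
Log2 change KO minus WT in goblet cells in set 1 (horizontal) and set 2 (vertical), 1 grey point per tested gene, with 5 genes beyond the axes. The called genes Wdfy1 and Rprml lie at the upper right, and 49 of 50 interferon-stimulated genes and 6 of 7 MHC class II genes lie in the lower left.

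The promoters of the interferon-stimulated genes are shown for the letters of the interferon-stimulated response element, a DNA element of interferon target genes. The pattern GAAANNGAAA was searched on both strands, where its reverse complement reads TTTCNNTTTC, from 250 bases before to 50 after each start in the RefSeq promoters of GRCm38.p6. Matches may overlap. It was found in 23 of 42 genes of the list that have an entry (54.8%), in 3.99% of 27025 genes in the table and in 0 of 4 MHC class II genes. The stretches below are the upstream matches of the 4 members of the antimicrobial and immune response list that hold one, printed along the gene's own strand with the matches in capitals.
Isg15, chr4:156200860-156200911, minus strand: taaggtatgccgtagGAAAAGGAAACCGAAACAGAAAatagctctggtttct
Ifit1, chr19:34640770-34640828, plus strand: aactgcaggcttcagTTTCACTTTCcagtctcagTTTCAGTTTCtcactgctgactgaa
Ifit3, chr19:34583358-34583431, plus strand: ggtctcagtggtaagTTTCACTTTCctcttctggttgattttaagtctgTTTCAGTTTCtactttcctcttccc
Oas1a, chr5:120907526-120907560, minus strand: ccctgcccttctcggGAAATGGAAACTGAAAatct
Isg15 holds 3 overlapping matches, the first of which begins 78 bases before the start, and each of the other genes holds 2. Ifit1 had a log2 change of -1.46 and Oas1a, a sensor of viral double-stranded RNA, one of -1.16. A match describes the letters, and binding was not measured here.

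None of the regulators of the goblet lineage passed the threshold. Of 20 tested regulators 0 were called, 10 were higher in KO in both sets and 1 lower, against 25.1% and 26.9% of all tested genes, and the median log2 change was 0.14. Atoh1 stood at 129, 140, 113 and 122 CPM in the 4 libraries, and Spdef had a log2 change of 0.15. Klf4 stood at 220, 282, 274 and 322 CPM, with a log2 change of 0.32, and Foxa3, a forkhead factor of the secretory lineage, at 122, 158, 119 and 138 CPM, likewise 0.32. Creb3l1 and Xbp1, factors of secretory capacity, had log2 changes of 0.11 and 0.11.

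Over both sets, the medians of mucin glycosylation, protein folding and granule release stood close to the median of all genes. The 32 tested glycosylation genes had a median log2 change of 0.006. In both sets 6 were higher and 13 lower in KO, against 25.1% and 26.9% of all tested genes. Galnt12 had a log2 change of 0.13. The 50 tested genes of endoplasmic reticulum folding had a median of 0.10, 0.23 in set 1 and -0.03 in set 2. Of these, 16 were higher and 6 lower in KO in both sets. Calr, a chaperone, stood at 830, 1022, 1236 and 1109 CPM, higher in KO in set 1 only. The 27 tested genes of granule traffic and exocytosis had a median of 0.02, with 9 higher and 3 lower in KO in both sets. Rab27b, a GTPase of secretory granules, stood at 90.8, 98.0, 132 and 136 CPM. None of these genes was called.

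The other secreted products had a median log2 change of -0.03 over 32 tested genes, with 0 called. Guca2a, the gut hormone guanylin, stood at 6363 CPM in WT1, 6440 in KO1, 2941 in WT2 and 2758 in KO2, a gap between sets in both genotypes. Lypd8, which keeps flagellated bacteria from the epithelium, stood at 2236, 1853, 3019 and 2638 CPM, and Ccl6, a chemokine, at 1090, 996, 821 and 619 CPM. Both were lower in the KO library of each set. Pigr, the antibody transporter, stood at 1339, 1159, 1474 and 1367 CPM. These differences are of the size of those between the sets or smaller.

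Genes reported as direct targets of miR-375 would be those that the microRNA could hold down. Of 16 tested, 0 were called, and the median log2 change was 0.05. In both sets 5 were higher and 4 lower in KO, against 25.1% and 26.9% of all tested genes. Ywhaz stood at 160, 171, 258 and 254 CPM, Klf5, a crypt transcription factor, at 156, 171, 233 and 231, and Mtdh at 111, 108, 139 and 134. Klf4, described above, is also on this list. Cadm1, Elavl4 and Fzd8 had too few UMIs to be tested. Of 12 tested genes near Mir375 or shifted by the knockout in earlier results of these data, 2 were called, Wdfy1 and Rprml, and this list was chosen on these libraries. Cfap65, the nearest coding gene, 1.35 kb from Mir375, is listed in the gene table under its older symbol Ccdc108. Goblet cells held 0, 1, 2 and 6 UMIs of it in the 4 libraries, too few to be tested.

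No gene of cell division or of stem cells passed the threshold. The 19 tested proliferation genes had a median log2 change of 0.06 with 0 called. Mki67 stood at 80.0, 88.8, 147 and 128 CPM and Top2a at 121, 102, 165 and 146 CPM in the 4 libraries. The 12 stem and early progenitor genes had a median of 0.07, -0.20 in set 1 and 0.12 in set 2. Dll1 stood at 70.5, 74.9, 63.4 and 77.9 CPM, and Sox4 at 70.2, 107, 50.1 and 50.7 CPM.

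No gene of the early response to stress or dissociation passed the threshold. Of 16 tested, 12 were higher in KO in both sets and 2 lower, against 25.1% and 26.9% of all tested genes. The median log2 change was 0.25. Fos stood at 224, 320, 313 and 419 CPM and Jund at 358, 485, 387 and 425 CPM. The 2 lower genes were the heat shock genes Hspa1a and Hspa1b, with log2 changes of -1.41 and -0.80. How long each tissue was dissociated is not stated in the labels.

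Of 6 tested genes of the proximal intestine, 5 were higher in KO in both sets, where 25.1% of all tested genes were. The 6 had a median log2 change of 0.73, with 0 called. Fabp1, a fatty acid carrier of enterocytes, stood at 371, 499, 566 and 1272 CPM and Rbp2, its retinol counterpart, at 102, 138, 255 and 529 CPM in goblet cells. In the other kept cells Fabp1 stood at 6272, 2468, 2988 and 8944 CPM. A single cell held 24.6% of the Fabp1 UMIs of the KO1 goblet cells, against 13.5% in WT1. For Rbp2 this was 30.9% against 18.1%, and for Apoa4 42.3% against 13.6%. The share of goblet cells with a Fabp1 UMI was 90.6% in WT1, 63.2% in KO1, 60.3% in WT2 and 88.9% in KO2. For Rbp2 it was 44.3%, 38.8%, 50.1% and 74.1%. For both genes this share was lower in KO in set 1 and higher in set 2. The part of enterocyte transcripts in these values was not tested. Of the 5 tested ileal genes 4, among them Reg3b and Reg3g, were lower in KO in both sets, against 26.9% of all tested genes. The 5 had a median log2 change of -0.39. Fabp6, the ileal bile acid carrier, stood at 9.47, 12.8, 318 and 311 CPM, low in set 1 and high in set 2 in both genotypes, and 57.7% of its UMIs in KO2 goblet cells came from 1 cell.

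The knockout effect in goblet cells was then set against that in the other kept cells of the same libraries. Of 12923 genes, 2 passed the edgeR test of that difference (0.0155%), the mast cell proteases Mcpt1 and Mcpt2, and 205 had an unadjusted p under 0.05. On simulated data, with differences put only into genes with many goblet UMIs, this test called 18% of 2-fold and 94% of 4-fold differences. Goblet cells held 1, 1, 3 and 267 UMIs of Mcpt1 and 0, 0, 1 and 322 of Mcpt2 in the 4 libraries. In KO2 a single cell gave 98.9% of the former and 99.7% of the latter. That cell had 41720 UMIs and 4.21% mucus UMIs. In the other kept cells Mcpt1 stood at 32.9, 0.302, 47.1 and 23.1 CPM and Mcpt2 at 17.7, 0, 28.1 and 14.2 CPM, lower in the KO library of each set. These levels rest on few cells, as 1, 0, 5 and 4 other kept cells held 10 or more UMIs of the 2 genes. Once the cells with the highest doublet scores were removed, 0 genes were called.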

How the data were processed

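Single-cell RNA was measured in 4 libraries prepared with 10x Genomics Chromium, per the labels. The deposited matrices give, as the authors made them, UMI counts in whole numbers for 27998 genes and each barcode. Per the submitters' processing notes the tools include Cell Ranger and the build is mm10, and per the file headers set 2 was written by software version 3.0.1. Total counts per library ran from 24533466 to 70409055. Counts were summed over the goblet cells of a library, filtered with filterByExpr, scaled with TMM and tested in R 4.3.3 by quasi-likelihood with edgeR 4.0.16, with the set as a block and two-sided Benjamini-Hochberg adjusted p under 0.05. The second test used 8 sums, of goblet and of other kept cells, with the library as a block. DESeq2 1.42.0 was an alternative. Set differences in WT and KO correlated at r = 0.67 over 11218 genes. Scrublet by its own cut-off found only 44 doublets, under 0.5% of the cells, and had thus not worked. As an alternative the cells with the highest scores were removed, 0.8% per 1000 barcodes, and are called likely doublets here. That they are doublets was not tested. Removed were 12, 12, 207 and 206 cells, of which 4, 7, 87 and 104 were goblet cells. In each library goblet cells were a larger part of the removed cells than of the kept cells. On simulated data for the comparison of genotypes, 92% of 2-fold and 100% of 4-fold changes were called, with 0.0184% of unchanged genes, over 11094 genes. For the second test 18% and 94% were called over 11218 genes. The changes were put only into genes with many goblet UMIs, and the simulated spread followed the expression level and not the single gene. These rates do not show that an uncalled gene changed less than 2-fold. Named genes are the gating genes, the 10 smallest p per direction with 1 sign in both sets, up to 4 members per list (those called, then the highest CPM), the called differences between cell groups, Wdfy1 and Cfap65. Any other named gene was chosen after its values were seen. Members and lists were chosen with earlier results of these data known, and 2 lists (interferon, MHC class II) after these values were seen. Gene positions come from GENCODE M21. Other computations used Python 3.11.15, numpy 2.4.6, pandas 2.3.3, scipy 1.17.1 and scanpy 1.11.5. Some named genes are not reported here.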

Additional observations from a re-analysis of the deposited data

Results flagged for a closer look

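Mcpt1 and Mcpt2 were picked out because the knockout effect in goblet cells differed from that in the other kept cells by a test of the difference itself. The log2 difference was 7.43 for Mcpt1 (edgeR adjusted p = 0.000207) and 9.52 for Mcpt2 (edgeR adjusted p = 0.000837). In KO2, 585 UMIs of the 2 genes lay in 1 of 584 goblet cells, and the KO1 goblet cells held 1 UMI of Mcpt1 and 0 of Mcpt2. Without likely doublets the log2 differences were 1.86 and 1.37, and without goblet cells that hold a lymphocyte UMI they were 0.87 and 1.22, with an edgeR adjusted p of 1 in each case. Without KO2 they were 7.09 and 8.81. In WT1, KO1 and WT2 only 1, 0 and 5 other kept cells held 10 or more UMIs of the 2 genes.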

How the results depend on the processing

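The number of genes called between genotypes (2 as reported) was 37 with a 2% mucus threshold, 50 with 5%, 6 with a 2% Lyz1 and Defa limit, 22 with a 10% mitochondrial limit, 12 without likely doublets, 37 after thinning to 2000 UMIs, 8 without goblet cells holding a lymphocyte UMI (added after seeing the data), 7 with median-of-ratios scaling, 72 without a filter on low counts, 12 with DESeq2 and 0 without the replicate block. Leaving out 1 library, with no block, gave 0 (without WT2) to 3. Wdfy1 lay between 2.09 and 2.84 and Rprml between 2.67 and 4.94 on the log2 scale over all settings, and neither passed the threshold without the block or a library. The number of genes whose effect differed from the other kept cells (2) was 0 with a 5% mucus threshold, a 10% mitochondrial limit, doublets removed, thinning or no lymphocyte UMIs, 48 without a filter on low counts, and 0 (without KO2) to 105 (without WT1) with a library left out, 4 without WT2 and 10 without KO1. With a library left out and no block, Reg1 was -0.49 without KO2, Reg3g 0.46 without WT2, and Reg3b 1.96 without WT2 and 0.25 without KO1. The median of the immune list was -0.74 with a 10% mitochondrial limit, -0.72 without lymphocyte UMIs and -1.04 (without KO2), -1.03 (without WT1) and -0.55 (without WT2) at the extremes with a library left out. The goblet share in set 2 had a log2 ratio of 0.55 with a 10% mitochondrial limit and -0.041 without cells holding 3 or more lymphocyte UMIs. Over both sets it lay between 0.23 and 0.49 with a library left out, and the replicate block left it at 0.36 with an exact permutation p of 0.5, the smallest possible. The causes were not tested. Values of genes with few UMIs rest on few counts, such as Rprml with 11 UMIs in the goblet cells of WT1 and 11 in those of WT2.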

Other observations

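Sst, the somatostatin gene of enteroendocrine D cells, had 214 UMIs in the goblet cells of WT1, of which 96.3% lay in 1 cell, and 6, 0 and 3 in KO1, WT2 and KO2. Lyz1, the Paneth cell lysozyme, stood at 731 CPM in WT1, 1134 in KO1, 457 in WT2 and 673 in KO2 goblet cells, and is used by the gate. Hopx, a gene of reserve stem cells and of mature epithelium, stood at 17.0 and 18.7 CPM in WT1 and KO1 and at 101 and 98.8 in set 2.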
